A study of Homo sapiens with 16 samples.

Results

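HUH6 cells, an established human hepatoblastoma line, were kept for 48 h in hypoxia, at an oxygen partial pressure of 1%, with 100 µM SLC-0111 or with DMSO, the solvent. Total RNA of 8 libraries is compared here, 4 with SLC-0111 and 4 with DMSO, chosen by their labels out of 16 in the series. The other 8 libraries hold the same treatments in normoxia, and their levels serve only where hypoxia is set against normoxia. All 16 libraries were fitted together, so the normoxia libraries also enter the estimate of the spread behind each p-value. The labels call the libraries of a group technical replicates of 1 cell line, so p-values speak only of how far libraries of a group lie from one another. Levels are in CPM, a gene's counts relative to the total of its library, with library totals scaled by TMM factors. A fold change is on the log2 scale, SLC-0111 over DMSO, and a gene is called when its p, adjusted over all tested genes, is under 0.05.

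Carbonic anhydrases turn carbon dioxide and water into bicarbonate and protons. CA9 and CA12 encode the membrane-bound isoforms IX and XII, whose active sites face outward and which help hypoxic tumour cells to keep their cytosol from turning acid. SLC-0111 is a ureido sulfonamide that inhibits both enzymes. In low oxygen the prolyl hydroxylases no longer mark the alpha subunits of the hypoxia-inducible factors (HIF) for degradation, and HIF with its partner ARNT binds DNA at a short core sequence and raises genes for glycolysis, glycogen storage, mitophagy and angiogenesis. CA9 is one of the most widely used HIF target genes.

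The promoters of 5 genes described below are shown as examples that hold a core sequence. Each runs from 250 bases before to 50 bases after the gene's start (RefSeq, GRCh38.p14, strand of the gene). In CA9 (chr9:35673678-35673977, plus strand), PPFIA4 (chr1:203026241-203026540, plus strand) and GBE1 (chr3:81761596-81761895, minus strand) capitals mark ACGTG, the core of the hypoxia response element, read on both strands. In MT2A (chr16:56608334-56608633, plus strand) they mark TGCGCNC or TGCACNC, the core of the metal response element, on both strands. In ASNS (chr7:97872359-97872658, minus strand) they mark TGATGNAA, the core of the amino acid response element.
CA9: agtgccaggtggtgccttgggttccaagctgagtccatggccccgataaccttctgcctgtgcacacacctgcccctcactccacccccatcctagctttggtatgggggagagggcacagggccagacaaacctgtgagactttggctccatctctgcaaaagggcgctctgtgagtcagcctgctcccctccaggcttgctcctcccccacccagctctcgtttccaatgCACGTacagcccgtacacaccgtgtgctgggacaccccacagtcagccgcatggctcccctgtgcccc
PPFIA4: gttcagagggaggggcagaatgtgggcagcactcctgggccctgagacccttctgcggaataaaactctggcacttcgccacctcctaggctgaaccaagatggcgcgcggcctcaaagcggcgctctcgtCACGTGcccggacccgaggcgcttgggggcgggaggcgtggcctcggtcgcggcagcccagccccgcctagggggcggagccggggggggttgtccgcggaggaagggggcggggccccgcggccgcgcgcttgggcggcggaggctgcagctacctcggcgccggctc
GBE1: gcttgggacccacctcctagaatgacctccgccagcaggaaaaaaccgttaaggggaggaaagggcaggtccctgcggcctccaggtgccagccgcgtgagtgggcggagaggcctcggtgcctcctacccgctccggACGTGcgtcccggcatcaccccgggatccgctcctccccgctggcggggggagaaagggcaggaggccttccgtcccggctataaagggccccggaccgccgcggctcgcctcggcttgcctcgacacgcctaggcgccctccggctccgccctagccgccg
MT2A: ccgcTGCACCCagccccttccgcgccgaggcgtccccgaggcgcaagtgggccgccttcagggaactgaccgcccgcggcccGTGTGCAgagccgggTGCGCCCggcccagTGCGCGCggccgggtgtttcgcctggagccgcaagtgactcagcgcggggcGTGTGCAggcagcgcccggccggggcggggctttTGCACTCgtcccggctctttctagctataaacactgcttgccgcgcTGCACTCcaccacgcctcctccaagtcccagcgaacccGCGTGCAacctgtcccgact
ASNS: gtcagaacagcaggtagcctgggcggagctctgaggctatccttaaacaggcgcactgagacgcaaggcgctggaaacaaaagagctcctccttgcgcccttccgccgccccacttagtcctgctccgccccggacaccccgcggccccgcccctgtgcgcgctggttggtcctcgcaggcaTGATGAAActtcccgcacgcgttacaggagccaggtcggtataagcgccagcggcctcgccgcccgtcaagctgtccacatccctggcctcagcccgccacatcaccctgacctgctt
The match in CA9 begins 18 bases before the gene's start and that in GBE1 112 bases before it. PPFIA4 has 2 overlapping matches, 119 and 118 bases before the start, which are the same letters read on both strands. MT2A holds 8 matches and ASNS 1. ACGTG was found in 5900 of 27305 promoters of the table, or 21.6%, the metal core in 29.3% and the amino acid core in 3.67%. A match describes the letters only and shows no binding.

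Library totals ran from 19.51 to 49.25 M counts with SLC-0111 and from 3.30 to 32.88 M with DMSO, where the shallowest was replicate 3 and the next 18.28 M. A count of 0 allows up to 3 reads, or 0.061 to 0.91 CPM over these depths. On the first principal component of the 8 libraries, with 52.5% of the variance, DMSO replicate 3 lay at 97.4 and the others between −18.4 and 2.2. The third component, with 11.3%, set DMSO replicate 1 apart at 40.5, with the others between −22.7 and 5.7. Where a count of 2 or more list members moved by over 1.5 times without these libraries, that count is also given. One DMSO column has a name that conflicts with the labels on its replicate number and is called unnumbered, and DMSO values are listed in the order replicate 1, 2, 3, unnumbered. Of 13 markers of hepatoblastoma and fetal hepatocytes 12 averaged at least 1 CPM, with APOB the highest, and the leukocyte marker PTPRC had no counts. The 7 fibroblast and stellate markers summed to 58.0 to 66.5 CPM with SLC-0111 and 89.2 to 103.5 CPM with DMSO, with PDGFRB the highest of them.

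SLC-0111 moved many genes by small amounts. Of 18385 tested genes 1681 (9.14%) were higher and 1307 (7.11%) lower, and 16.3% changed in either direction. Among called genes the median size was log2 0.32 for those higher and 0.36 for those lower, and 65 rose and 136 fell at least 2-fold. The median over all tested genes was log2 −0.01. No overlap between the 4 SLC-0111 and the 4 DMSO libraries was seen for 1790 genes with higher levels (9.74%) and 1342 with lower levels (7.3%). The counts were 1731 higher and 1308 lower without DMSO replicates 1 and 3. Scaling by library size alone gave 959 higher and 1941 lower, so the balance between the directions rests on the scaling. By gene type, 1622 of 13572 protein-coding genes were higher and 1100 lower, and 14 of 958 lincRNAs were higher and 55 lower. The balance also moved with the level: 38 were higher and 128 lower in the bottom quartile of all genes by mean level, and 759 higher and 452 lower in the top quartile. The part of the level in the balance by gene type was not tested.

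**Figure D1:**
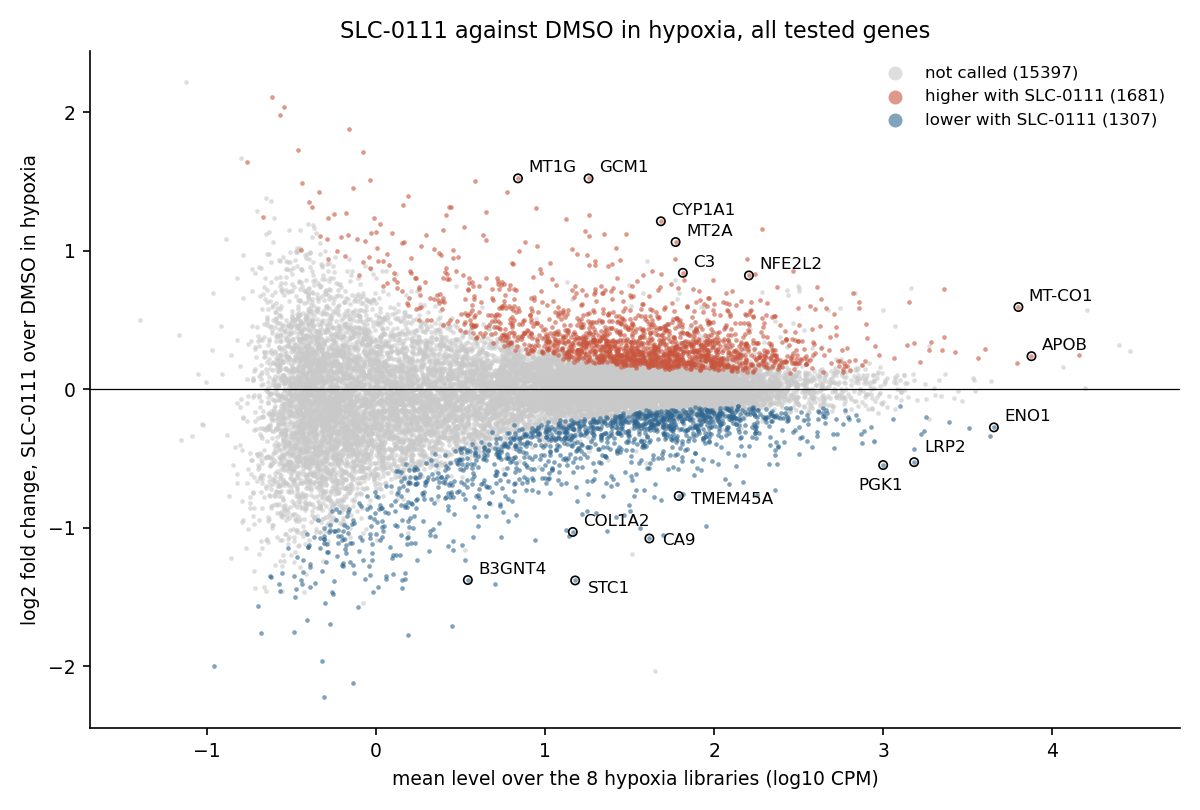
Each point is 1 of the 18385 tested genes, with its mean level over the 8 hypoxia libraries on the x axis (log10 CPM) and its log2 fold change, SLC-0111 over DMSO, on the y axis. The 1681 genes called higher are red and the 1307 called lower are blue, and a few described genes are circled.

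Of the genes of isoforms IX and XII, CA9 fell and CA12 did not pass the test. CA9 (ENSG00000107159, chromosome 9, 35673856 to 35681159, GRCh38) measured 26.5, 30.0, 26.8 and 22.9 CPM with SLC-0111, against 45.1, 61.9, 59.0 and 59.0 CPM with DMSO. Every SLC-0111 library lay below every DMSO library, and DMSO replicate 1 was the lowest of its group. CA9 thus fell by 1.08 on the log2 scale (log2 −1.08 ± 0.10, adjusted p = 2.1e-07), more than the spread between libraries. CA12 (ENSG00000074410, chromosome 15, 63321378 to 63382161) measured 6.76, 6.35, 5.48 and 5.54 CPM with SLC-0111, against 6.06, 6.78, 5.36 and 5.68 CPM with DMSO. The groups overlapped and the difference did not pass the test (log2 −0.04 ± 0.11, adjusted p = 0.882). Of 12 tested carbonic anhydrase genes 8.33% were lower and 16.7% higher, against 7.11% and 9.14% of all genes. CA9 was the only one called lower (2 were when scaled by library size alone, with RLE factors or in DESeq2), and 2 were called higher. These were CA2, the abundant cytosolic isoform, with 18.6, 20.9, 20.04 and 19.04 CPM with SLC-0111, against 13.5, 13.1, 12.2 and 12.3 CPM with DMSO (log2 0.61 ± 0.10, adjusted p = 0.000252), and CA13, another cytosolic isoform, with 26.1 ± 1.96 CPM with SLC-0111 and 20.8 ± 0.841 CPM with DMSO (log2 0.33 ± 0.07, adjusted p = 0.00086; SD, n = 4 each here and below). Neither overlapped between the groups. Among 12 genes of proton, bicarbonate and lactate transport 2 were lower (16.7% against 7.11% of all genes) and 0 higher, with a median of log2 −0.05. Without DMSO replicate 1 or 3 the list had 1 lower.

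**Figure D2:**
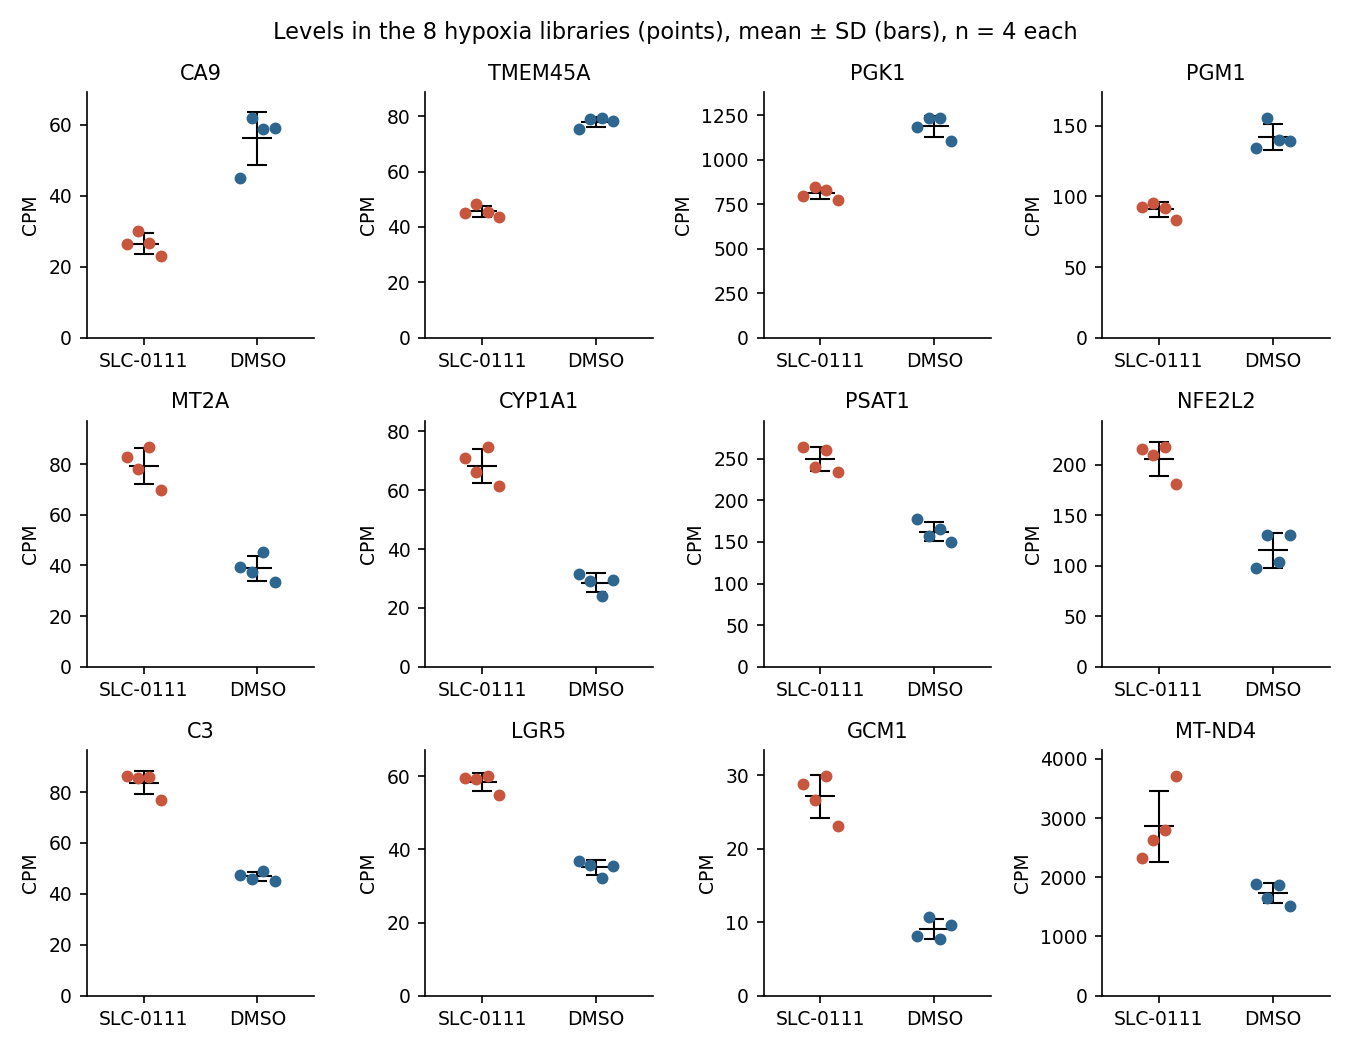
Levels in CPM of 12 genes in the 4 SLC-0111 libraries (red) and the 4 DMSO libraries (blue) in hypoxia; points are libraries and bars are mean ± SD. The groups do not overlap in any of the 12 genes, with CA9, TMEM45A, PGK1 and PGM1 lower and the other 8 higher with SLC-0111.

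Of 12 tested subunits, hydroxylases and cofactors of HIF 1 was higher and 1 lower, or 8.33% each, near the 9.14% and 7.11% of all genes. ARNT, the shared beta subunit, measured 66.8, 67.0, 63.9 and 61.8 CPM with SLC-0111, against 53.6, 57.8, 58.4 and 58.5 CPM with DMSO (log2 0.19 ± 0.05, adjusted p = 0.00778), and DMSO replicate 1 was its lowest library. Scaled by library size alone, its log2 fold change was 0.12 and did not pass (adjusted p = 0.141). CITED2, a HIF-induced protein that competes with HIF for its coactivator, measured 447, 471, 453 and 428 CPM with SLC-0111, against 474, 659, 506 and 604 CPM with DMSO (log2 −0.32 ± 0.07, adjusted p = 0.00277). All 4 SLC-0111 libraries were below the DMSO libraries. HIF1A, which encodes the main oxygen-regulated alpha subunit, had 224 ± 7.12 CPM with SLC-0111 and 209.9 ± 20.7 CPM with DMSO (log2 0.09 ± 0.05, adjusted p = 0.281), and EPAS1, which encodes HIF2 alpha, had 206 ± 1.82 CPM with SLC-0111 and 191 ± 5.01 CPM with DMSO (log2 0.11 ± 0.04, adjusted p = 0.0757). Neither passed the test, although the EPAS1 groups did not overlap. HIF1A passed narrowly without DMSO replicate 2 (log2 0.15, adjusted p = 0.0481).

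Many genes that cells raise in low oxygen were lower with SLC-0111. Of 23 tested members of the list whose products act inside the cell 13 were lower and 0 higher, or 56.5% against 7.11% of all genes, with a median of log2 −0.34. Leaving out DMSO replicates 1 and 3 gave 17 lower, with a median of −0.46. TMEM45A, a hypoxia-induced membrane protein gene, measured 45.2, 48.2, 45.3 and 43.6 CPM with SLC-0111, against 75.3, 78.9, 79.2 and 78.2 CPM with DMSO (log2 −0.77 ± 0.05, adjusted p = 4.61e-10). Both groups were tight and lay far apart. PPFIA4, a liprin family scaffold gene, measured 50.3, 62.6, 54.2 and 73.3 CPM with SLC-0111, against 106, 123, 114 and 135 CPM with DMSO (log2 −0.99 ± 0.10, adjusted p = 4.79e-07). HILPDA, which encodes a lipid droplet protein that blocks the lipase ATGL, measured 24.7, 24.9, 19.8 and 21.9 CPM with SLC-0111, against 37.1, 48.4, 34.0 and 44.1 CPM with DMSO (log2 −0.88 ± 0.09, adjusted p = 4.52e-07). In these 3 genes every SLC-0111 library was below every DMSO library.

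INSIG2, which encodes an anchor that holds back the sterol-sensing SREBP complex, measured 46.0, 53.5, 47.7 and 49.9 CPM with SLC-0111, against 57.2, 98.0, 71.2 and 102 CPM with DMSO (log2 −0.76 ± 0.14, adjusted p = 0.00177). The groups were apart, but DMSO replicates 1 and 3 lay well below the other DMSO libraries. The oxidoreductase gene ERO1A (log2 −0.40 ± 0.06, adjusted p = 2.07e-05) and FAM162A, a mitochondrial protein gene (log2 −0.34 ± 0.06, adjusted p = 0.000162), fell without overlap as well. The mitophagy receptor gene BNIP3 measured 649, 696, 688 and 589 CPM with SLC-0111, against 679, 964, 794 and 848 CPM with DMSO (log2 −0.33 ± 0.08, adjusted p = 0.00463). There DMSO replicate 1 fell among the SLC-0111 libraries, so the groups overlapped. BHLHE41, a clock repressor gene near the lower end of detection, had 1.05 ± 0.252 CPM with SLC-0111 and 2.02 ± 1.21 CPM with DMSO (log2 −1.120 ± 0.27, adjusted p = 0.00457), and its call was lost without DMSO replicate 2 (log2 −0.76, adjusted p = 0.0741). Promoters of 19 of the 23 members were in the RefSeq set and 14 of these (73.7%) held ACGTG, against 25.8% of 11299 promoters of tested genes. The list was made of genes that rise in low oxygen, so this share does not bear on SLC-0111. The share was 56.5% for ribosome biogenesis genes and 52.9% for clock genes. Among called genes the share was 22.4% of 1243 promoters of genes that were higher and 30.7% of 885 of genes that were lower.

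**Figure D3:**
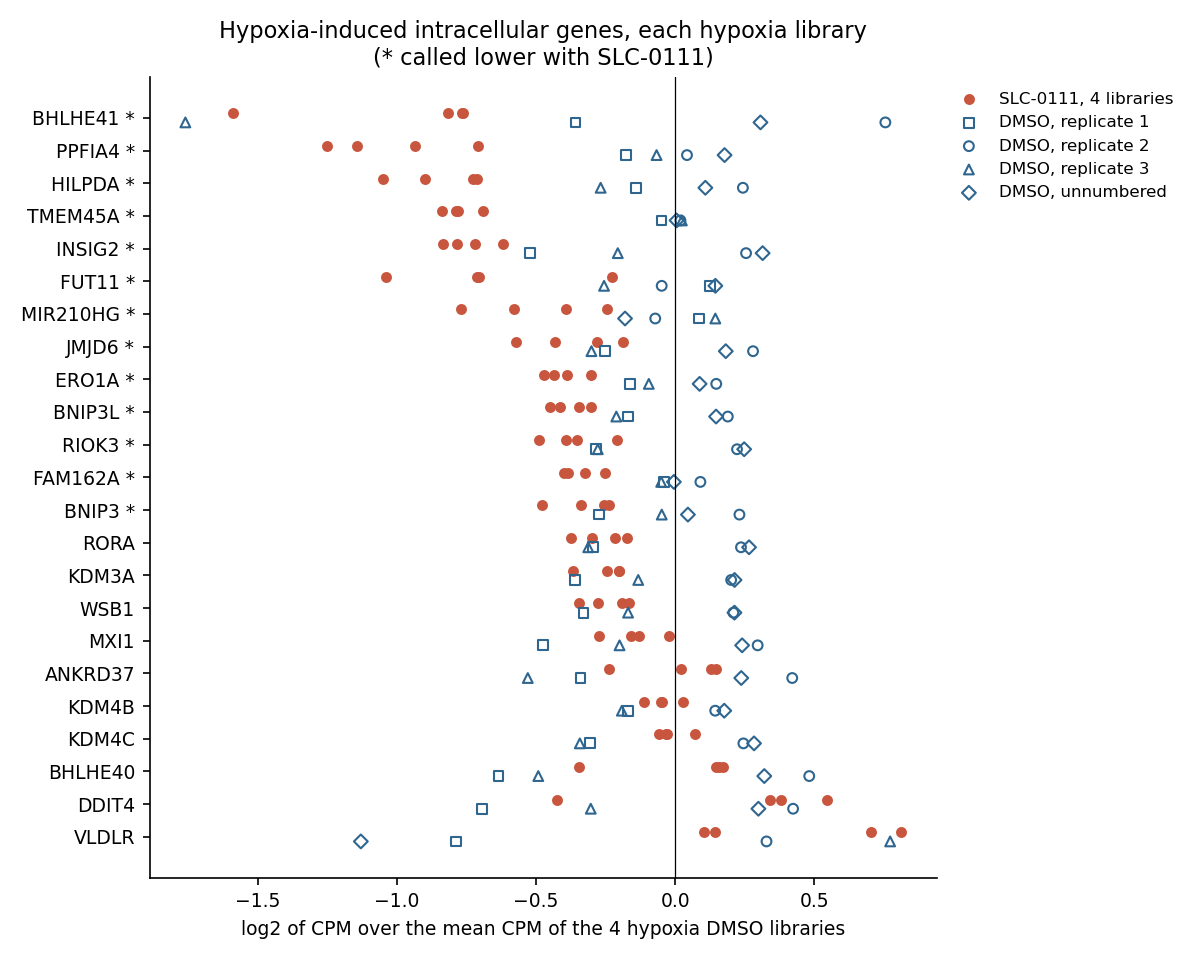
The 23 tested hypoxia-induced intracellular genes, ordered by fold change, with each hypoxia library's level as the log2 of its CPM over the mean of the 4 DMSO libraries. SLC-0111 libraries are filled red circles and DMSO libraries open blue symbols; the 13 genes with an asterisk were called lower, and DMSO replicates 1 and 3 lie left of the other DMSO libraries in most rows.

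Among 18 secreted and surface factors induced by hypoxia 2 were lower (11.1% against 7.11% of all genes) and 0 higher, with 5 lower without DMSO replicate 1. STC1, a secreted glycoprotein gene, measured 7.33, 9.27, 7.89 and 8.51 CPM with SLC-0111, against 15.0, 25.4, 23.5 and 23.6 CPM with DMSO (log2 −1.38 ± 0.13, adjusted p = 1.51e-07), with DMSO replicate 1 the lowest of its group. LOX, which encodes the collagen cross-linking lysyl oxidase, measured 52.3, 54.4, 49.8 and 42.9 CPM with SLC-0111, against 58.6, 87.97, 66.4 and 79.7 CPM with DMSO (log2 −0.57 ± 0.10, adjusted p = 0.000346). Both genes were without overlap. VEGFA, the main angiogenic factor, measured 204, 210.4, 203 and 161 CPM with SLC-0111, against 104, 199, 124 and 197 CPM with DMSO and did not pass (log2 0.30 ± 0.17, adjusted p = 0.288). Its DMSO libraries split into 2 low ones, replicates 1 and 3, and 2 that lay close to the first 3 SLC-0111 libraries, and without replicates 1 and 3 its value was log2 −0.02. The part of the difference between DMSO libraries in these results was not tested.

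Transcripts of several glycolysis enzymes were lower with SLC-0111. Of 19 tested enzyme genes 9 were lower and 1 higher (47.4% lower), with a median of log2 −0.24. PGK1, which encodes phosphoglycerate kinase, measured 797, 847, 827 and 775 CPM with SLC-0111, against 1182, 1232, 1233 and 1103 CPM with DMSO (log2 −0.55 ± 0.05, adjusted p = 7.08e-08). The abundant ENO1 (enolase) had 4086 ± 255 CPM with SLC-0111 and 4948 ± 336 CPM with DMSO (log2 −0.28 ± 0.06, adjusted p = 0.00127), GAPDH had 2899 ± 188 CPM with SLC-0111 and 3515 ± 344 CPM with DMSO (log2 −0.28 ± 0.06, adjusted p = 0.00246) and PKM (pyruvate kinase M) had 1492 ± 56.5 CPM with SLC-0111 and 1866 ± 99.8 CPM with DMSO (log2 −0.32 ± 0.05, adjusted p = 5.03e-05). In these 4 genes the SLC-0111 libraries were all below the DMSO libraries. HK1, the first enzyme of the pathway, fell (log2 −0.48 ± 0.11, adjusted p = 0.00557), with overlap, and did not pass in a fit of the 8 hypoxia libraries alone (adjusted p = 0.0762). The aldolase gene ALDOC, at low counts, had 0.518 ± 0.0712 CPM with SLC-0111 and 1.40 ± 0.240 CPM with DMSO (log2 −1.47 ± 0.23, adjusted p = 8.54e-05). The liver pyruvate kinase gene PKLR was the one called higher (log2 0.31 ± 0.09, adjusted p = 0.0235), but its call was lost when any of 6 of the 8 libraries was left out, including DMSO replicates 1 and 2 (adjusted p 0.0507 to 0.0735).

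At the branch points, 3 of 17 genes of glucose transport and pyruvate control were higher and 3 lower, or 17.6% each. Among all genes 9.14% were higher and 7.11% lower. Without DMSO replicate 1 the list had 5 higher. PDK3, a kinase that shuts pyruvate out of the mitochondrial dehydrogenase, measured 28.4, 32.6, 28.1 and 29.6 CPM with SLC-0111, against 41.1, 46.4, 39.6 and 43.2 CPM with DMSO (log2 −0.53 ± 0.06, adjusted p = 2.52e-06). PFKFB4, which makes the activator of phosphofructokinase, fell as well (log2 −0.42 ± 0.08, adjusted p = 0.00166). Its liver paralog PFKFB1 rose (log2 0.84 ± 0.17, adjusted p = 0.00113), and so did SLC2A2, the hepatocyte glucose transporter GLUT2, with 86.4 ± 1.95 CPM with SLC-0111 and 66.1 ± 6.69 CPM with DMSO (log2 0.38 ± 0.06, adjusted p = 8.1e-05). The groups did not overlap in these 4 genes. PCK2, mitochondrial phosphoenolpyruvate carboxykinase, measured 81.1, 73.3, 83.5 and 70.3 CPM with SLC-0111, against 44.9, 36.8, 40.5 and 38.5 CPM with DMSO (log2 0.94 ± 0.07, adjusted p = 9.15e-10). Its lowest SLC-0111 library stood well above its highest DMSO library.

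Of 14 glycogen genes 7 were lower and 0 higher. PGM1, phosphoglucomutase, which links glycogen with glycolysis, measured 92.8, 95.6, 91.7 and 83.3 CPM with SLC-0111, against 134, 155, 139.7 and 139 CPM with DMSO (log2 −0.65 ± 0.05, adjusted p = 2e-08). GBE1, the branching enzyme of glycogen, measured 59.8, 62.8, 63.0 and 55.4 CPM with SLC-0111, against 79.2, 108, 73.0 and 103 CPM with DMSO (log2 −0.62 ± 0.08, adjusted p = 1.9e-05). PPP1R3B, which targets a phosphatase to glycogen and so activates its synthesis in liver, measured 25.7, 30.9, 26.6 and 27.4 CPM with SLC-0111, against 36.0, 49.4, 38.1 and 43.9 CPM with DMSO (log2 −0.62 ± 0.08, adjusted p = 1.27e-05). In all 3 genes the groups were apart, and in GBE1 the DMSO replicates 1 and 3 were again the lowest of their group. The list count was 7 lower and 0 higher without DMSO replicate 1, without 3 and without both. For these genes the change with hypoxia in DMSO cells, which uses the same DMSO libraries, was log2 2.25 for PGK1, 3.48 for PGM1, 2.39 for GBE1 and 1.89 for TMEM45A.

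Of 15 mitochondrial transcripts 5 were higher and 0 lower, with a median of log2 0.57, while 0 of 32 nuclear respiratory chain subunits were called in either direction (median 0.02, or −0.05 scaled by library size alone). MT-ND4, a complex I subunit, measured 2318, 2624, 2790.0 and 3705 CPM with SLC-0111, against 1878, 1657, 1877 and 1523 CPM with DMSO (log2 0.72 ± 0.12, adjusted p = 0.000768). MT-CO1, a complex IV subunit, measured 5812, 7643, 7961 and 8921 CPM with SLC-0111, against 4898, 5233, 5639 and 4346 CPM with DMSO (log2 0.59 ± 0.11, adjusted p = 0.000851), and MT-CO2, another, had 1716 ± 263 CPM with SLC-0111 and 1111 ± 239 CPM with DMSO (log2 0.63 ± 0.13, adjusted p = 0.00466; adjusted p = 0.0598 in a fit of the 8 hypoxia libraries alone). The groups did not overlap in these 3 genes, and SLC-0111 replicate 4 was the highest library in each. Left out, DMSO replicates 1 and 3 gave 11 mitochondrial transcripts higher and 6 nuclear subunits higher, and without replicate 1 alone 9 mitochondrial transcripts were. The mitochondrial share of all counts was 6.41, 7.77, 7.6 and 8.91% in the SLC-0111 libraries and 6.16, 7.06, 6.28 and 5.73% in the DMSO libraries, so it overlapped. Of 21 genes of the citric acid cycle 5 were higher (23.8% against 9.14% of all genes), and 0 were when libraries were scaled by size alone.

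**Figure D4:**
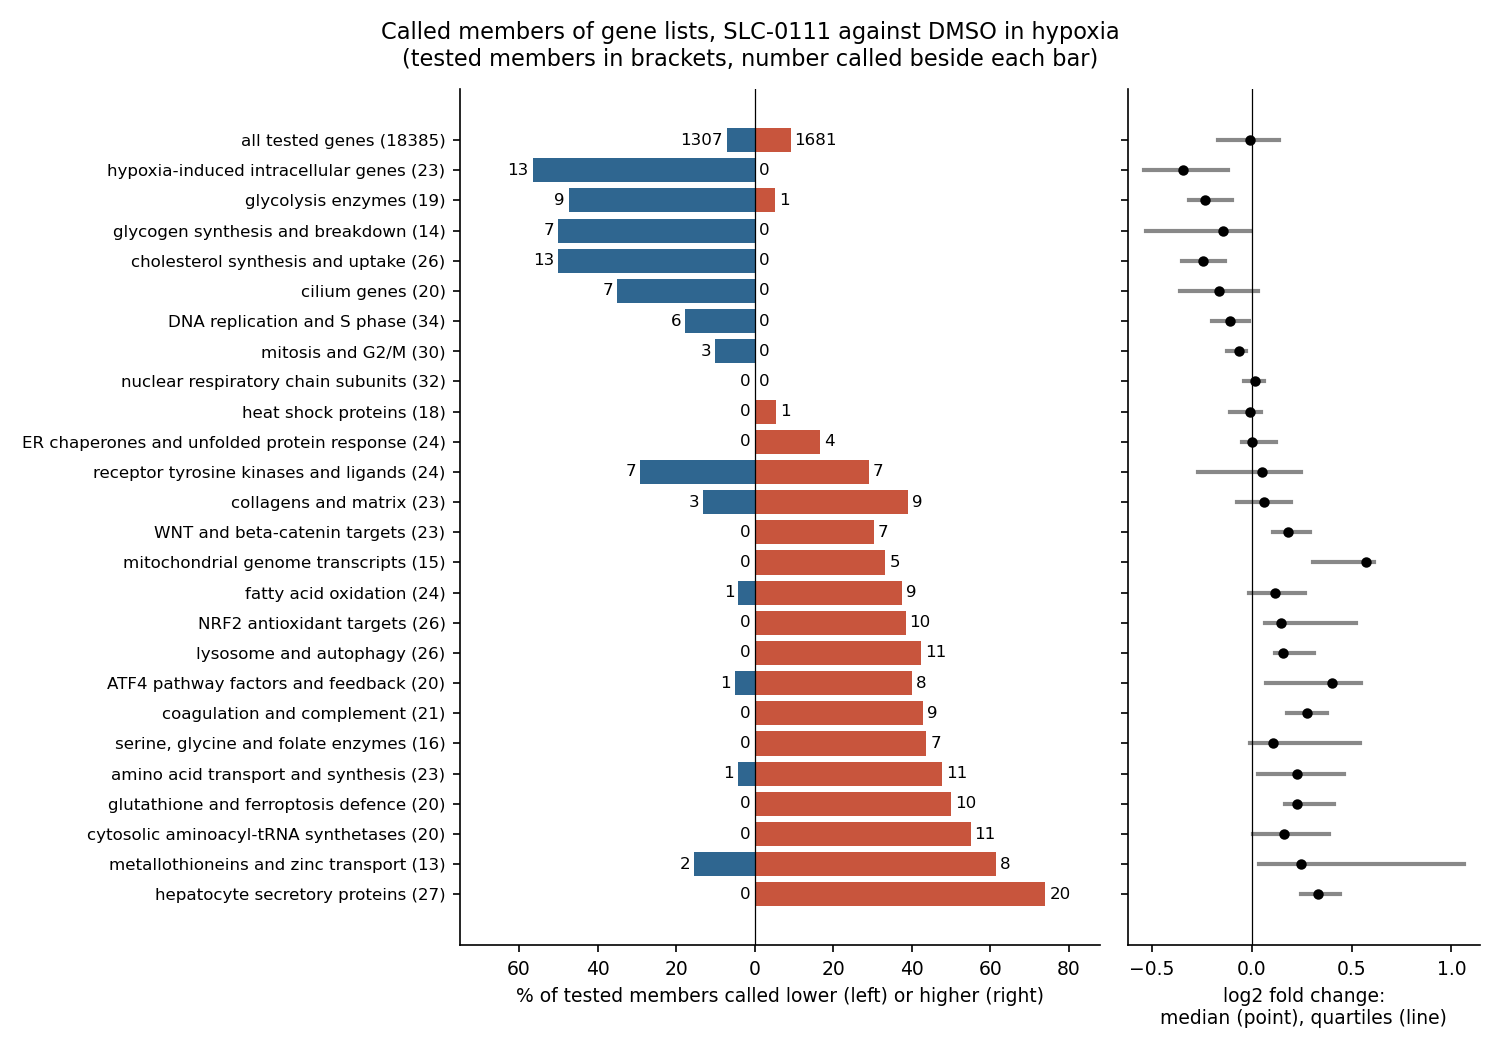
For 25 gene lists and for all tested genes, the left panel gives the percentage of tested members called lower (blue) and higher (red) with the numbers beside the bars, and the right panel the median log2 fold change (point) with its quartiles (line). Hypoxia-induced intracellular genes had 13 of 23 lower and hepatocyte secretory proteins 20 of 27 higher.

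ATF4 is the transcription factor that cells translate when amino acids run short or the endoplasmic reticulum is stressed, and its targets make, import and load amino acids. Of 20 ATF4 pathway factors 8 were higher and 1 lower (40% against 9.14% of all genes). ATF4 itself had 418 ± 30.7 CPM with SLC-0111 and 352 ± 14.6 CPM with DMSO (log2 0.24 ± 0.06, adjusted p = 0.00563), although scaled by library size alone its log2 fold change of 0.18 did not pass (adjusted p = 0.0765). CHAC1, which degrades glutathione, measured 4.70, 3.31, 3.46 and 2.62 CPM with SLC-0111, against 1.53, 1.53, 1.19 and 1.65 CPM with DMSO (log2 1.15 ± 0.18, adjusted p = 7.03e-05). TRIB3, a feedback inhibitor of the pathway, rose as well (log2 0.49 ± 0.12, adjusted p = 0.00563), with DMSO replicate 1 above the lowest SLC-0111 library, and so did the stress-response gene NUPR1 (log2 0.52 ± 0.09, adjusted p = 0.000576).

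Of 16 enzymes of serine, glycine and folate metabolism 7 were higher and 0 lower. PHGDH, the first enzyme of serine synthesis, measured 256, 234, 247 and 223 CPM with SLC-0111, against 177, 162, 162 and 159.6 CPM with DMSO (log2 0.54 ± 0.05, adjusted p = 7.08e-08). PSAT1, the second, measured 264, 239.8, 260.3 and 234 CPM with SLC-0111, against 177, 157, 166 and 150.3 CPM with DMSO (log2 0.62 ± 0.05, adjusted p = 2.37e-08). MTHFD2, a mitochondrial folate enzyme, had 94.7 ± 5.22 CPM with SLC-0111 and 60.7 ± 5.46 CPM with DMSO (log2 0.63 ± 0.06, adjusted p = 7.08e-08). The 2 groups were apart in all 3 genes, with DMSO replicate 1 the highest DMSO library for PHGDH and PSAT1.

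Of 23 genes of amino acid transport and synthesis 11 were higher and 1 lower. SLC7A11, the cystine importer that feeds glutathione synthesis, measured 38.3, 34.4, 36.7 and 33.0 CPM with SLC-0111, against 17.3, 18.3, 14.3 and 18.1 CPM with DMSO (log2 1.02 ± 0.07, adjusted p = 1.78e-09). SLC43A1, a carrier of branched-chain amino acids, had 26.7 ± 1.76 CPM with SLC-0111 and 16.0 ± 1.14 CPM with DMSO (log2 0.74 ± 0.07, adjusted p = 7.08e-08), and SLC1A4, a carrier of neutral amino acids, had 24.9 ± 1.53 CPM with SLC-0111 and 14.7 ± 1.53 CPM with DMSO (log2 0.72 ± 0.08, adjusted p = 9.03e-07). All 3 were free of overlap. ASNS, asparagine synthetase, was near the floor in DMSO, with 3.10, 2.31, 2.88 and 2.37 CPM with SLC-0111, against 0.807, 1.88, 0 and 1.33 CPM with DMSO (log2 1.04 ± 0.27, adjusted p = 0.00975). When DMSO replicates 1 and 3 were left out, its log2 fold change was 0.67 and its call was lost (adjusted p = 0.0587). SLC36A4, a proline and tryptophan carrier, was the one called lower (log2 −0.54 ± 0.08, adjusted p = 2.06e-05). The amino acid response core shown in ASNS lay in 5 of the 19 promoters found for this list (26.3%), against 1.79% of promoters of tested genes. The list was made of genes of a kind that ATF4 targets, so this share does not bear on SLC-0111. Among all genes called higher the share was 1.85% of 1243 promoters.

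Of 20 cytosolic aminoacyl-tRNA synthetases 11 were higher and 0 lower (55%), and 14 were higher without DMSO replicates 1 and 3. AARS, the alanine enzyme, measured 250.1, 218, 235 and 209 CPM with SLC-0111, against 158, 141, 138 and 146 CPM with DMSO (log2 0.64 ± 0.05, adjusted p = 2.05e-08). YARS, the tyrosine enzyme, measured 89.3, 81.8, 86.7 and 75.1 CPM with SLC-0111, against 58.4, 54.1, 56.0 and 51.4 CPM with DMSO (log2 0.60 ± 0.06, adjusted p = 6.16e-08). Neither overlapped. Of 24 members of the unfolded protein response list 4 were higher (16.7% against 9.14% of all genes) and 0 lower, with 6 higher without DMSO replicate 1. In the top quartile of all genes by level 759 of 4596 were higher. Of 18 heat shock proteins CRYAB, a small heat shock protein, was the only one called, with 39.0, 32.3, 34.0 and 19.98 CPM with SLC-0111, against 10.6, 18.4, 8.64 and 15.0 CPM with DMSO (log2 1.122 ± 0.22, adjusted p = 0.0028). SLC-0111 replicate 4 was its lowest library of the group but still above all DMSO libraries.

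In the redox lists the called genes were all higher. Of 20 genes of glutathione and ferroptosis defence 10 were higher and 0 lower (50%), and of 26 targets of NRF2, the transcription factor of the antioxidant response, 10 were higher and 0 lower. NFE2L2, which encodes NRF2, measured 216, 209, 217 and 181 CPM with SLC-0111, against 97.4, 130.4, 104 and 130.3 CPM with DMSO (log2 0.82 ± 0.08, adjusted p = 1.33e-07). GSTA1, a glutathione transferase, had 12.4 ± 1.14 CPM with SLC-0111 and 6.49 ± 1.53 CPM with DMSO (log2 0.84 ± 0.12, adjusted p = 4.42e-05), and TXNRD1, thioredoxin reductase, had 174 ± 3.42 CPM with SLC-0111 and 125 ± 11.4 CPM with DMSO (log2 0.48 ± 0.06, adjusted p = 5.99e-06). In the 3 genes the lowest SLC-0111 library exceeded the highest DMSO library.

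Metallothioneins are small proteins that bind zinc and copper, and their genes are switched on by the zinc sensor MTF1 at metal response elements. Of 13 genes of metallothioneins and zinc transport 8 were higher and 2 lower. MT2A measured 82.7, 78.2, 86.7 and 69.9 CPM with SLC-0111, against 39.5, 37.5, 45.3 and 33.4 CPM with DMSO (log2 1.06 ± 0.08, adjusted p = 3.27e-09). MT1G measured 11.8, 9.66, 10.7 and 9.20 CPM with SLC-0111, against 4.28, 3.19, 3.28 and 3.29 CPM with DMSO (log2 1.52 ± 0.14, adjusted p = 4.44e-08), with DMSO replicate 1 the highest of its group. MT1F had 40.3 ± 3.33 CPM with SLC-0111 and 19.5 ± 3.30 CPM with DMSO (log2 1.119 ± 0.09, adjusted p = 3.31e-09) and MT1X 1.97 ± 0.286 CPM with SLC-0111 and 0.862 ± 0.230 CPM with DMSO (log2 1.05 ± 0.20, adjusted p = 0.000827). The zinc exporter gene SLC30A1, another MTF1 target, rose too (log2 0.48 ± 0.06, adjusted p = 4.36e-06). All 5 genes were without overlap. The metallothionein genes are near copies of one another and may share reads, so the share of each is uncertain. The metal response core lay in 3 of the 8 promoters found for the 13 genes of the list (37.5%), against 37.9% of promoters of tested genes.

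Of 20 nuclear receptors of liver metabolism 6 were higher and 0 lower (6 and 2 without DMSO replicate 1). NR1I3, which encodes the xenobiotic receptor CAR, measured 14.5, 12.7, 12.6 and 10.6 CPM with SLC-0111, against 3.55, 5.66, 5.66 and 5.79 CPM with DMSO (log2 1.31 ± 0.15, adjusted p = 2.74e-06), and NR1I2, which encodes PXR, had 4.48 ± 0.267 CPM with SLC-0111 and 3.20 ± 0.274 CPM with DMSO (log2 0.54 ± 0.12, adjusted p = 0.00249). NR0B2, a corepressor of bile acid synthesis, had 2.30 ± 0.568 CPM with SLC-0111 and 0.805 ± 0.214 CPM with DMSO (log2 1.39 ± 0.24, adjusted p = 0.000259). NR1D1, the clock repressor REV-ERB alpha, measured 27.4, 25.7, 32.0 and 19.4 CPM with SLC-0111, against 6.62, 12.7, 8.34 and 14.2 CPM with DMSO (log2 1.25 ± 0.20, adjusted p = 0.000516). No overlap was seen in the 4 genes, and DMSO replicate 1 was the lowest library for NR1I3 and NR1D1. Scaled by library size alone the receptor list had 4 higher and 3 lower.

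CYP1A1, a cytochrome P450 that the aryl hydrocarbon receptor induces, measured 70.9, 66.0, 74.6 and 61.4 CPM with SLC-0111, against 31.5, 29.3, 24.1 and 29.5 CPM with DMSO (log2 1.21 ± 0.07, adjusted p = 7.96e-11). Its lowest SLC-0111 library stood far above its highest DMSO library. SLC22A7, a hepatic organic anion transporter, measured 9.45, 7.96, 8.72 and 8.37 CPM with SLC-0111, against 3.92, 2.91, 3.57 and 2.65 CPM with DMSO (log2 1.42 ± 0.13, adjusted p = 4.44e-08), and the conjugate exporter ABCC3 rose as well (log2 0.57 ± 0.09, adjusted p = 6.05e-05). Of 12 hepatic transporters of drugs and bile 4 were higher (33.3%) and 1 lower (8.33%). Of 15 drug metabolism enzymes 6 were higher (40%) and 0 lower, against 9.14% and 7.11% of all genes.

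The count of sterol genes leaned on the DMSO libraries. Of 26 genes of cholesterol synthesis and uptake 13 were lower and 0 higher (50%, median log2 −0.24). Without DMSO replicate 1 there were 10 lower and 1 higher, and without both replicates 1 and 3 there were 4 lower and 2 higher. CYP51A1, lanosterol demethylase, measured 11.8, 11.6, 10.4 and 9.37 CPM with SLC-0111, against 14.9, 14.2, 17.3 and 16.2 CPM with DMSO (log2 −0.51 ± 0.11, adjusted p = 0.00189). Its groups showed no overlap.

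Of 22 genes of fatty acid and glycerolipid synthesis 4 were higher and 6 lower (18.2% and 27.3%, against 9.14% and 7.11% of all genes). Both desaturase genes described here fell. SCD measured 1243, 1323, 1284 and 1360.0 CPM with SLC-0111, against 1859, 1735, 1792 and 1651 CPM with DMSO (log2 −0.43 ± 0.07, adjusted p = 0.000165), and FADS2 had 109.8 ± 3.36 CPM with SLC-0111 and 161 ± 11.9 CPM with DMSO (log2 −0.55 ± 0.08, adjusted p = 2.82e-05). Among the genes that rose were acyltransferases that build glycerolipids. GPAM measured 50.6, 47.5, 51.2 and 53.3 CPM with SLC-0111, against 36.3, 27.4, 33.4 and 31.1 CPM with DMSO (log2 0.67 ± 0.08, adjusted p = 2.89e-06), and DGAT2, which makes triglycerides, had 53.4 ± 4.54 CPM with SLC-0111 and 37.2 ± 4.58 CPM with DMSO (log2 0.56 ± 0.07, adjusted p = 2.89e-06). The groups were apart in all 4. Of 16 lipid droplet proteins and lipases 6 were higher and 1, HILPDA, lower. LIPC, hepatic lipase, measured 101, 103, 99.8 and 96.8 CPM with SLC-0111, against 62.5, 62.0, 63.7 and 57.7 CPM with DMSO (log2 0.71 ± 0.05, adjusted p = 8.79e-10), and G0S2, an inhibitor of the lipase ATGL, had 12.0 ± 1.62 CPM with SLC-0111 and 5.82 ± 0.256 CPM with DMSO (log2 1.03 ± 0.12, adjusted p = 1.28e-06).

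Of 24 genes of fatty acid oxidation 9 were higher and 1 lower, with 5 higher when scaled by library size alone. ACAA1, the peroxisomal thiolase, had 200.1 ± 16.8 CPM with SLC-0111 and 138 ± 7.66 CPM with DMSO (log2 0.53 ± 0.06, adjusted p = 5.37e-07), and BDH1, which interconverts ketone bodies, had 3.78 ± 0.215 CPM with SLC-0111 and 2.13 ± 0.305 CPM with DMSO (log2 0.85 ± 0.14, adjusted p = 0.000174). Of 26 lysosome and autophagy genes 11 were higher and 0 lower (42.3%). CTSL, the protease cathepsin L, measured 218, 197, 212 and 179 CPM with SLC-0111, against 142, 125, 136 and 119.8 CPM with DMSO (log2 0.63 ± 0.07, adjusted p = 6.84e-07). CTSB, cathepsin B, had 550.1 ± 22.4 CPM with SLC-0111 and 425 ± 18.1 CPM with DMSO (log2 0.37 ± 0.05, adjusted p = 4.48e-06), and SQSTM1, the autophagy adaptor p62, had 191 ± 18.5 CPM with SLC-0111 and 130.5 ± 5.77 CPM with DMSO (log2 0.54 ± 0.06, adjusted p = 3.85e-07). None of these 5 genes overlapped between the groups.

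Liver genes were the list with the highest share called higher. Of 27 hepatocyte secretory proteins 20 were higher and 0 lower, or 74.1% against 9.14% of all genes, with a median of log2 0.33. Without DMSO replicates 1 and 3 there were 16 higher and 0 lower. TTR, the thyroxine carrier transthyretin, measured 433, 457, 448 and 434 CPM with SLC-0111, against 312, 290.2, 308 and 262 CPM with DMSO (log2 0.60 ± 0.05, adjusted p = 6.07e-08). ALB, albumin, measured 40.1, 39.7, 37.9 and 35.5 CPM with SLC-0111, against 23.0, 28.8, 22.6 and 26.5 CPM with DMSO (log2 0.57 ± 0.09, adjusted p = 0.000125). APOH had 7.68 ± 0.289 CPM with SLC-0111 and 4.55 ± 0.258 CPM with DMSO (log2 0.72 ± 0.12, adjusted p = 0.000198) and APOC3, an inhibitor of lipoprotein lipase, 552 ± 21.5 CPM with SLC-0111 and 369 ± 29.1 CPM with DMSO (log2 0.58 ± 0.06, adjusted p = 6.93e-07). Each was higher in every SLC-0111 library than in every DMSO library. APOB, the structural protein of LDL, was among the largest differences in CPM, with 8156 ± 296 CPM with SLC-0111 and 6915 ± 318 CPM with DMSO (log2 0.24 ± 0.06, adjusted p = 0.00573), but without DMSO replicates 1 and 3 its call was lost (log2 0.20, adjusted p = 0.0542). In bulk RNA, a change in the number of cells of a state and a change in RNA per cell cannot be told apart.

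Of 21 coagulation and complement genes 9 were higher and 0 lower. SERPINC1, antithrombin, measured 25.2, 26.1, 27.2 and 25.04 CPM with SLC-0111, against 14.0, 14.4, 12.8 and 13.8 CPM with DMSO (log2 0.89 ± 0.07, adjusted p = 1.17e-08). C3, the central complement component, measured 86.2, 85.6, 85.8 and 76.8 CPM with SLC-0111, against 47.6, 45.9, 49.1 and 45.2 CPM with DMSO (log2 0.84 ± 0.05, adjusted p = 7.96e-11), with SLC-0111 replicate 4 the lowest of its group and all SLC-0111 libraries above the DMSO libraries. Of 25 genes of the urea cycle and amino acid breakdown 9 were higher and 1 lower. CPS1, which starts the urea cycle, measured 111, 115, 104 and 107 CPM with SLC-0111, against 71.4, 71.6, 72.4 and 72.8 CPM with DMSO (log2 0.60 ± 0.05, adjusted p = 1.29e-08). OTC, the next enzyme, was near the floor with 1.34 ± 0.125 CPM with SLC-0111 and 0.491 ± 0.209 CPM with DMSO (log2 1.51 ± 0.27, adjusted p = 0.000286), and HPD, a tyrosine-degrading dioxygenase, had 45.6 ± 2.33 CPM with SLC-0111 and 29.6 ± 1.32 CPM with DMSO (log2 0.61 ± 0.06, adjusted p = 2e-07). These 3 were without overlap.

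Oncofetal and imprinted genes had no common direction, with 3 of 18 higher (16.7% against 9.14% of all genes) and 4 lower (22.2% against 7.11%). Without DMSO replicates 1 and 3 there was 1 lower. AFP, alpha-fetoprotein, the clinical marker of hepatoblastoma, measured 522, 527, 544 and 519.5 CPM with SLC-0111, against 428, 454, 418 and 436 CPM with DMSO (log2 0.28 ± 0.07, adjusted p = 0.00588). GPC3, the glypican used as a tumour antigen, measured 1971, 2078, 2124 and 1983 CPM with SLC-0111, against 1606, 1757, 1775 and 1577 CPM with DMSO (log2 0.28 ± 0.06, adjusted p = 0.00143), and the imprinted RNA H19 had 2.91 ± 0.236 CPM with SLC-0111 and 1.501 ± 0.479 CPM with DMSO (log2 1.01 ± 0.19, adjusted p = 0.000516). The groups did not overlap, but the AFP call was lost without DMSO replicates 1 and 3 (log2 0.25, adjusted p = 0.0651) and when scaled by library size alone (log2 0.21, adjusted p = 0.0595).

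Signalling genes changed in several pathways. Of 23 WNT and beta-catenin targets 7 were higher and 0 lower (30.4%, median log2 0.18). LGR5, the R-spondin receptor, measured 59.5, 59.3, 59.96 and 54.9 CPM with SLC-0111, against 36.7, 35.8, 32.2 and 35.5 CPM with DMSO (log2 0.71 ± 0.06, adjusted p = 4.88e-09). TBX3, a beta-catenin target in liver tumours, measured 909.7, 882, 904 and 753 CPM with SLC-0111, against 449, 695, 475 and 671 CPM with DMSO (log2 0.59 ± 0.11, adjusted p = 0.00178). DMSO replicates 1 and 3 were the lowest for TBX3, while LGR5 was even across DMSO. Of 27 genes of ERK feedback and immediate early response 6 were higher and 2 lower (22.2% and 7.41%, against 9.14% and 7.11% of all genes). Without DMSO replicate 1 there were 4 lower. SPRY4, a Sprouty inhibitor of receptor kinase signalling, measured 5.58, 5.36, 7.21 and 5.10 CPM with SLC-0111, against 1.53, 2.22, 1.19 and 2.602 CPM with DMSO (log2 1.501 ± 0.18, adjusted p = 2.99e-06). SPRY2 had 24.1 ± 2.66 CPM with SLC-0111 and 15.1 ± 1.28 CPM with DMSO (log2 0.69 ± 0.08, adjusted p = 3.74e-06), the phosphatase gene DUSP6 had 40.3 ± 4.40 CPM with SLC-0111 and 27.8 ± 3.58 CPM with DMSO (log2 0.51 ± 0.09, adjusted p = 0.000358) and the transcription factor gene ETV5 4.82 ± 0.375 CPM with SLC-0111 and 2.82 ± 0.536 CPM with DMSO (log2 0.67 ± 0.13, adjusted p = 0.000536). All SLC-0111 libraries exceeded all DMSO libraries in these 4.

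Of 24 receptor tyrosine kinases and ligands 7 were higher and 7 lower, or 29.2% each, against 9.14% and 7.11% of all genes. ERBB3, the neuregulin receptor without kinase activity of its own, measured 421, 439, 443 and 442 CPM with SLC-0111, against 316, 324, 335 and 318 CPM with DMSO (log2 0.43 ± 0.04, adjusted p = 1.05e-07). Its partner ERBB4 measured 3.87, 4.75, 3.68 and 3.68 CPM with SLC-0111, against 6.38, 8.82, 7.45 and 6.74 CPM with DMSO (log2 −0.88 ± 0.15, adjusted p = 0.000237). The 2 members of 1 family therefore moved in opposite directions, each without overlap. PDGFRB, a platelet-derived growth factor receptor, fell with 38.5 ± 2.67 CPM with SLC-0111 and 54.2 ± 1.31 CPM with DMSO (log2 −0.50 ± 0.06, adjusted p = 9.27e-07).

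Of 27 genes of TGF-beta and BMP signalling 6 were higher and 2 lower (22.2% and 7.41%, against 9.14% and 7.11% of all genes). SKIL, an inhibitor that TGF-beta induces, measured 243, 238, 229 and 186 CPM with SLC-0111, against 86.9, 164, 89.9 and 152 CPM with DMSO (log2 0.83 ± 0.18, adjusted p = 0.00707), and ID1, a BMP target, measured 578, 554, 550.5 and 405 CPM with SLC-0111, against 267, 417, 268 and 369 CPM with DMSO (log2 0.65 ± 0.14, adjusted p = 0.00654). DMSO replicates 1 and 3 were far below the other DMSO libraries in both genes, and the highest DMSO library overlapped with SLC-0111 for ID1. In a fit of the 8 hypoxia libraries alone neither passed (adjusted p = 0.0738 for SKIL and 0.0573 for ID1). Without DMSO replicates 1 and 3 the list had 5 higher and 4 lower and its median was −0.06 in place of 0.10.

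Of 29 YAP targets and actin cytoskeleton genes 8 were higher (27.6% against 9.14% of all genes) and 0 lower. Without DMSO replicate 1 there were 4 higher, without replicate 3 there were 3, and without both 1 was higher and 3 were lower. ANKRD1, a YAP target, measured 312, 278, 295 and 192 CPM with SLC-0111, against 56.1, 182, 70.6 and 157 CPM with DMSO (log2 1.16 ± 0.32, adjusted p = 0.0252). Its call was lost without DMSO replicate 3 (adjusted p = 0.0599), without both (log2 0.67, adjusted p = 0.0525) and without SLC-0111 replicate 1, 2 or 3 (adjusted p 0.0548 to 0.0672). In a fit of the 8 hypoxia libraries alone it did not pass either (adjusted p = 0.152). FLNC, an actin cross-linker, had 378 ± 59.8 CPM with SLC-0111 and 208 ± 36.7 CPM with DMSO (log2 0.86 ± 0.13, adjusted p = 0.000345).

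Of 23 collagens and matrix genes 9 were higher (39.1%) and 3 lower (13.0%). Of 17 collagen-modifying enzymes 3 were higher (17.6%) and 4 lower (23.5%), against 9.14% and 7.11% of all genes. COL1A1, 1 chain of type I collagen, measured 14.1, 14.9, 14.6 and 12.1 CPM with SLC-0111, against 8.72, 7.66, 8.64 and 7.38 CPM with DMSO (log2 0.79 ± 0.11, adjusted p = 2.71e-05). COL1A2, its partner chain, measured 8.93, 10.8, 10.7 and 8.18 CPM with SLC-0111, against 20.2, 20.1, 18.8 and 18.96 CPM with DMSO (log2 −1.03 ± 0.11, adjusted p = 4.34e-07). The chains moved apart, each without overlap. COL5A2 rose (log2 0.51 ± 0.07, adjusted p = 2.69e-05), and so did FN1, fibronectin, with 15580.0 ± 869 CPM with SLC-0111 and 13110.0 ± 610.3 CPM with DMSO (log2 0.25 ± 0.06, adjusted p = 0.00454), the largest difference in CPM among called nuclear genes.

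LOXL3, a lysyl oxidase, measured 9.86, 10.5, 7.53 and 7.89 CPM with SLC-0111, against 14.7, 20.3, 16.7 and 19.3 CPM with DMSO (log2 −1.02 ± 0.11, adjusted p = 6.75e-07), and PLOD2, a collagen lysyl hydroxylase, had 173 ± 11.5 CPM with SLC-0111 and 251 ± 23.8 CPM with DMSO (log2 −0.54 ± 0.06, adjusted p = 6.92e-07). The catalytic subunits of prolyl hydroxylase went opposite ways: P4HA1 measured 346, 362, 353 and 342 CPM with SLC-0111, against 255, 295, 277 and 277 CPM with DMSO (log2 0.35 ± 0.06, adjusted p = 0.000164), and P4HA2 measured 201, 217, 202 and 184 CPM with SLC-0111, against 243, 279.5, 262 and 262 CPM with DMSO (log2 −0.38 ± 0.06, adjusted p = 3.02e-05). Of 21 genes of epithelial and mesenchymal state 8 were higher and 2 lower. The lower ones were the keratin genes KRT8, with 3769 ± 215 CPM with SLC-0111 and 4765 ± 543 CPM with DMSO (log2 −0.34 ± 0.07, adjusted p = 0.000821), and KRT18, with 770.1 ± 29.1 CPM with SLC-0111 and 1000.0 ± 119.8 CPM with DMSO (log2 −0.38 ± 0.06, adjusted p = 0.000187), and the transcription factor gene SNAI1, at a low level, rose (log2 0.72 ± 0.12, adjusted p = 0.000204). All of these were without overlap.

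Of 20 cilium genes 7 were lower and 0 higher (35%), or 4 lower without DMSO replicate 1. FOXJ1, the regulator of motile cilia, measured 2.74, 2.76, 2.38 and 2.601 CPM with SLC-0111, against 6.06, 3.38, 5.66 and 4.62 CPM with DMSO (log2 −0.85 ± 0.18, adjusted p = 0.00193). GPR161, a ciliary receptor that holds back Hedgehog signalling, measured 194, 197, 181 and 184 CPM with SLC-0111, against 216, 262, 218 and 258 CPM with DMSO (log2 −0.34 ± 0.06, adjusted p = 0.000201). The groups were apart in both genes.

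Of 30 mitosis genes 3 (10%) were lower and 0 higher, of 34 DNA replication genes 6 (17.6%) were lower and 0 higher, and of 28 ribosome biogenesis genes 5 (17.9%) were lower and 1 higher, against 7.11% lower among all genes. These directions rest on the DMSO libraries: without replicates 1 and 3 the counts were 1 lower and 1 higher, 1 lower and 3 higher, and 3 lower and 4 higher in the same order of lists. CCNE2, a G1 cyclin gene, had 4.77 ± 0.772 CPM with SLC-0111 and 6.98 ± 0.878 CPM with DMSO (log2 −0.50 ± 0.13, adjusted p = 0.00824), with the call lost without DMSO replicate 1 (log2 −0.39, adjusted p = 0.0545) and without 1 and 3 (log2 −0.36, adjusted p = 0.084). FBL, the methyltransferase of ribosomal RNA, measured 158, 151, 149 and 134 CPM with SLC-0111, against 190.3, 183, 212 and 172 CPM with DMSO (log2 −0.35 ± 0.07, adjusted p = 0.00112) without overlap. CDKN2C, which encodes the CDK inhibitor p18, had 3.25 ± 0.455 CPM with SLC-0111 and 5.84 ± 1.71 CPM with DMSO (log2 −0.70 ± 0.15, adjusted p = 0.00171). GADD45A, a stress gene of growth arrest, had 101 ± 17.4 CPM with SLC-0111 and 64.0 ± 11.8 CPM with DMSO (log2 0.64 ± 0.13, adjusted p = 0.00288), without overlap. Of 42 cytosolic ribosomal protein genes 1 was higher (2.38% against 9.14% of all genes), while 7 were without DMSO replicate 3 and 10 without replicates 1 and 3.

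Of 28 apoptosis regulators 2 were higher and 2 lower, or 7.14% each, near the 9.14% and 7.11% of all genes. One of these was TNFSF10, which encodes the death ligand TRAIL, with 59.0 ± 5.46 CPM with SLC-0111 and 78.9 ± 10.4 CPM with DMSO (log2 −0.43 ± 0.08, adjusted p = 0.000358). Of 20 genes of antigen presentation and interferon response 3 were higher (15%) and 0 lower, and of 22 iron genes 4 were higher (18.2%) and 1 lower, against 9.14% higher among all genes. In the top quartile by level 759 of 4596 genes were higher, and these lists were not set against genes of like level. Of 20 histone lysine demethylases 3 were lower (15% against 7.11% of all genes) and 0 higher, with 7 lower without DMSO replicates 1 and 3. Of 17 replication-dependent histone genes, near copies that may share reads, 2 were lower (11.8% against 7.11% of all genes). Without DMSO replicate 3 the number was 5, and without replicates 1 and 3 it was 12.

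Several of the largest changes lay outside these lists. GCM1, a transcription factor gene known from the placenta, measured 28.8, 26.7, 29.8 and 23.1 CPM with SLC-0111, against 8.15, 10.7, 7.74 and 9.61 CPM with DMSO (log2 1.52 ± 0.09, adjusted p = 7.96e-11). MS4A10, a membrane protein gene, had 6.26 ± 0.443 CPM with SLC-0111 and 2.72 ± 0.399 CPM with DMSO (log2 1.28 ± 0.13, adjusted p = 4.34e-07). The semaphorin genes SEMA3G and SEMA6B, whose products guide axons and vessels, had 23.7 ± 2.45 CPM with SLC-0111 and 10.6 ± 2.04 CPM with DMSO (log2 1.14 ± 0.12, adjusted p = 4.34e-07) and 24.5 ± 2.96 CPM with SLC-0111 and 11.7 ± 1.42 CPM with DMSO (log2 1.105 ± 0.10, adjusted p = 3.4e-08). ST3GAL1, a sialyltransferase, and PCDH1, a protocadherin, rose too (log2 1.23 ± 0.18, adjusted p = 0.000174, and log2 1.11 ± 0.14, adjusted p = 8.58e-06). The lowest SLC-0111 library was above the highest DMSO library in these 6 genes, but the rule that picked them required this.

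On the lower side, MAB21L3 measured 27.6, 35.8, 29.3 and 36.5 CPM with SLC-0111, against 65.5, 69.3, 66.4 and 68.8 CPM with DMSO (log2 −1.06 ± 0.07, adjusted p = 1.12e-09). WDR54, a WD-repeat protein gene, measured 15.3, 15.3, 15.9 and 15.0 CPM with SLC-0111, against 32.4, 30.6, 30.4 and 31.1 CPM with DMSO (log2 −1.02 ± 0.06, adjusted p = 7.96e-11). NREP, a neuronal regeneration-related gene, had 3.52 ± 0.123 CPM with SLC-0111 and 7.38 ± 0.769 CPM with DMSO (log2 −1.07 ± 0.13, adjusted p = 4.99e-06), and the ubiquitin ligase gene RNF183 had 8.92 ± 1.11 CPM with SLC-0111 and 18.6 ± 0.798 CPM with DMSO (log2 −1.06 ± 0.10, adjusted p = 6.66e-08). In each of these 4 genes the highest SLC-0111 library lay below the lowest DMSO library, which the rule that picked them required. RNF223 (log2 −1.41 ± 0.16, adjusted p = 1.12e-06), the glycosyltransferase gene B3GNT4 (log2 −1.38 ± 0.16, adjusted p = 1.45e-06), SYDE1 (log2 −1.09 ± 0.10, adjusted p = 3.89e-08) and the uroplakin gene UPK1A (log2 −0.95 ± 0.12, adjusted p = 2.89e-06) fell as well. LRP2, the endocytic receptor megalin, was among the largest falls in CPM, with 1164, 1383, 1147 and 1301 CPM with SLC-0111, against 1414, 2050.0, 1651 and 2081 CPM with DMSO (log2 −0.53 ± 0.10, adjusted p = 0.0011). DMSO replicates 1 and 3 were its lowest DMSO libraries but above all SLC-0111 libraries, which the rule for the largest falls in CPM required.

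The effect of SLC-0111 in hypoxia was then set against that in normoxia, which uses other libraries. In normoxia 2271 genes (12.4%) were higher and 2067 (11.2%) lower. Higher in both conditions were 883 genes, or 52.5% of those higher in hypoxia and 38.9% of those higher in normoxia. Lower in both were 437 genes, or 33.4% of those lower in hypoxia and 21.1% of those lower in normoxia. Of the genes called in hypoxia 39 that were higher and 44 that were lower went the opposite way in normoxia. The difference between the effects was called for 1102 genes (5.99%), 527 (2.87%) with a more positive and 575 (3.13%) with a more negative value in hypoxia. Without DMSO replicates 1 and 3 of hypoxia, 2953 genes were called, so this count rests strongly on these 2 libraries.

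**Figure D5:**
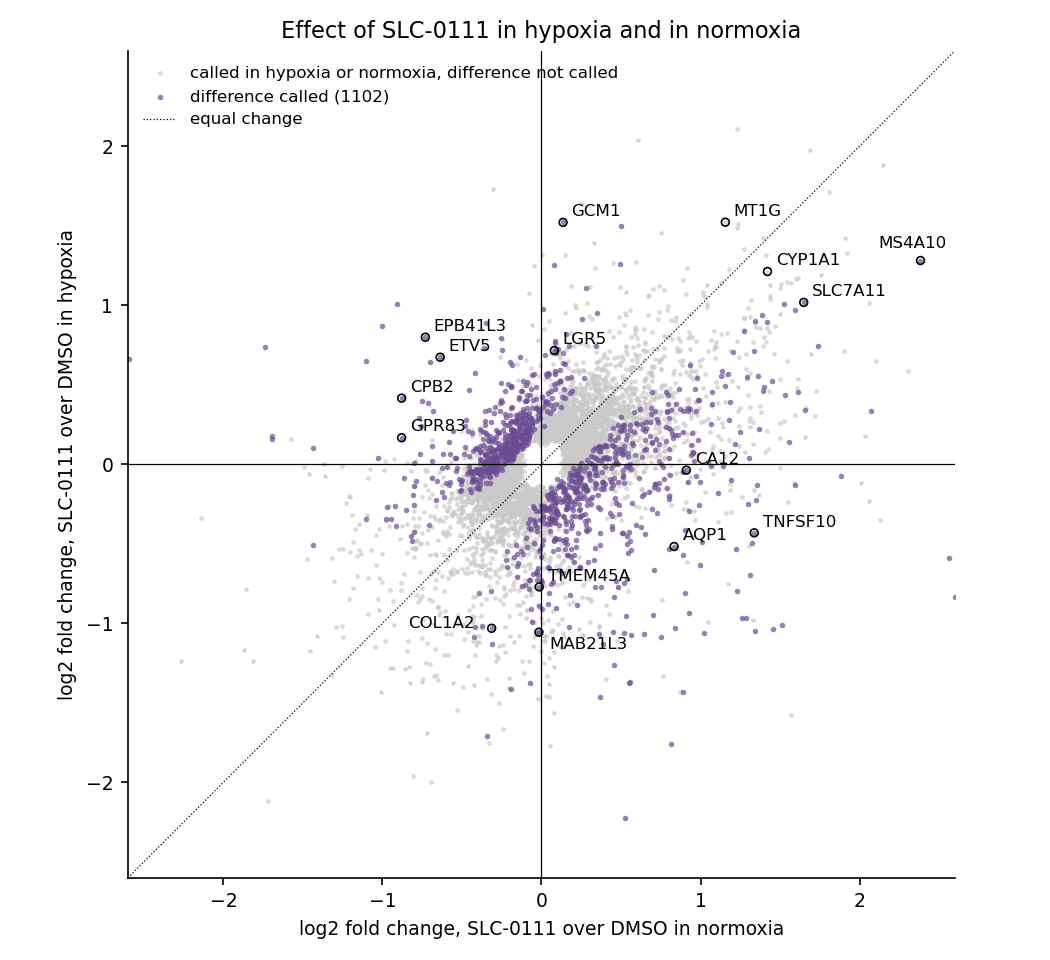
Log2 fold change of SLC-0111 over DMSO in hypoxia (y axis) against that in normoxia (x axis), for genes called in at least 1 of them. Purple points are the 1102 genes whose difference was called, the dotted line marks equal change, and 4 genes lie outside the axes.

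Several of the genes described above, picked as examples, had similar values in both conditions. CYP1A1 changed by log2 1.21 in hypoxia and 1.42 in normoxia, MT2A by 1.06 and 1.02, PSAT1 by 0.62 and 0.70, and TXNRD1 by 0.48 and 0.45. None of these 4 differences passed the test (adjusted p 0.208 to 0.868). SLC7A11 rose in both, by 1.02 in hypoxia and 1.65 in normoxia, and the difference was called (log2 −0.63 ± 0.10, adjusted p = 0.000485). The difference was called with a more negative value in hypoxia for 5 of 23 genes of amino acid transport and synthesis, 4 of 16 of serine, glycine and folate and 3 of 12 hepatic transporters. Over all tested genes this held for 3.13%. Of 30 mitosis genes 0 were higher and 25 lower in normoxia, and the difference was called with a more positive value in hypoxia for 7 of them. Of 34 DNA replication genes 25 were lower in normoxia, with 2 such differences. Over all tested genes 11.2% were lower in normoxia and 2.87% had such a difference.

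Hypoxia-induced genes were among those with an effect in hypoxia that differed. For 8 of the 23 intracellular members the difference was called, all with a more negative value in hypoxia, against 3.13% of all genes. TMEM45A had log2 −0.77 in hypoxia and −0.01 in normoxia (difference log2 −0.76 ± 0.07, adjusted p = 1.59e-06), and PPFIA4 had −0.99 and −0.06 (difference log2 −0.93 ± 0.14, adjusted p = 0.000538). For PGM1 the values were −0.65 and 0.05 (difference log2 −0.70 ± 0.09, adjusted p = 3.36e-05). CA9 had so few counts in normoxia that its difference was not called (log2 −0.68 ± 1.15, adjusted p = 0.785). CA12 rose in normoxia (log2 0.91, adjusted p = 6.11e-06) and its difference was called (log2 −0.95 ± 0.17, adjusted p = 0.00127).

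Among the genes with large called differences, those described next moved in opposite directions or in 1 condition. MS4A10, in contrast, rose in both, by log2 1.28 in hypoxia and 2.38 in normoxia (difference log2 −1.102 ± 0.26, adjusted p = 0.0122). TNFSF10 was lower in hypoxia and higher in normoxia, at log2 −0.43 and 1.34 (difference log2 −1.77 ± 0.15, adjusted p = 2.53e-07). AQP1, a water channel that also passes carbon dioxide, measured 74.5, 83.8, 78.3 and 80.5 CPM with SLC-0111, against 107, 115, 128 and 109 CPM with DMSO in hypoxia (log2 −0.52 ± 0.08, adjusted p = 6.87e-05) and rose in normoxia (log2 0.83, adjusted p = 3.08e-06; difference log2 −1.35 ± 0.13, adjusted p = 1.59e-06). PLEKHA2 fell in hypoxia (log2 −0.66 ± 0.12) and its normoxia value was log2 0.71 (difference log2 −1.37 ± 0.32, adjusted p = 0.0125). ANXA1, annexin A1, had log2 0.04 in hypoxia and rose in normoxia (log2 1.30, adjusted p = 5.62e-05; difference log2 −1.27 ± 0.26, adjusted p = 0.00566). In TNFSF10, AQP1, PLEKHA2 and ANXA1 the difference was at least 1 on the log2 scale.

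On the other side, EPB41L3, which encodes a membrane skeleton protein, was higher in hypoxia (log2 0.80 ± 0.17, adjusted p = 0.00239) and lower in normoxia (log2 −0.73, adjusted p = 0.000116; difference log2 1.53 ± 0.21, adjusted p = 0.000129). CPB2, a carboxypeptidase that slows clot lysis, measured 22.7, 22.9, 23.3 and 22.2 CPM with SLC-0111, against 18.6, 14.7, 15.8 and 18.6 CPM with DMSO in hypoxia (log2 0.42 ± 0.10, adjusted p = 0.00814) and fell in normoxia (log2 −0.88, adjusted p = 6.88e-07; difference log2 1.29 ± 0.14, adjusted p = 1.29e-05). GCM1 rose in hypoxia and had log2 0.14 in normoxia (difference log2 1.38 ± 0.12, adjusted p = 4.32e-07). The receptor gene GPR83 did not pass in hypoxia (log2 0.17 ± 0.07, adjusted p = 0.131) and fell in normoxia (log2 −0.88, adjusted p = 8.24e-09; difference log2 1.05 ± 0.10, adjusted p = 1.92e-06). ETV5 was higher in hypoxia and lower in normoxia (difference log2 1.31 ± 0.17, adjusted p = 6.77e-05), and LGR5 rose in hypoxia with log2 0.08 in normoxia (difference log2 0.63 ± 0.08, adjusted p = 3.36e-05).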

How the data were processed

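RNA of HUH6 cells was sequenced, and the authors deposited raw gene counts for 58735 genes. Per the submitters' processing notes HISAT2, HTSeq, MultiQC 1.10.1 and edgeR 3.4.0 were used with GRCh38; strand handling is not given in the sources used here, so overlapping and antisense genes are uncertain. All genes matched GENCODE 29, and coordinates are from it. Of the count columns 2 carry a replicate name that conflicts with the labels and were used in their group with no number.

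Counts were fitted in edgeR 4.0.16 (R 4.3.3) with TMM scaling, filterByExpr and the quasi-likelihood F test over all 16 libraries in 4 groups, since the groups then share an estimate of the spread. p-values were adjusted after Benjamini and Hochberg over all tested genes, and a standard error is the fold change over the root of F. limma 3.58.1 and DESeq2 1.42.0, other scalings, filters and libraries left out were alternatives. On simulated counts for 18066 genes the hypoxia comparison recovered 54 of 100 genes changed 1.5-fold and 71 of 99 changed 2-fold, with 9 other calls.

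Named genes were CA9 and CA12, the 15 largest called rises and falls without overlap at 5 CPM or more, the 10 largest by CPM, up to 4 called members per gene list, and the 8 largest differences each way, from which a selection is described. HIF1A, EPAS1, VEGFA, INSIG2, ERO1A, BNIP3, FAM162A, PKLR, ATF4, PHGDH, SLC36A4, TXNRD1, SLC30A1, CTSB, ERBB3, P4HA1 and P4HA2 fall outside this rule and were chosen after their values were seen. Pseudogenes, clones, antisense genes and small RNAs were passed over, and some genes are not reported here. The members and gene lists were chosen with earlier results of these data known. Promoters are from RefSeq.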

Additional observations from a re-analysis of the deposited data

Results flagged for a closer look

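Single libraries that stood far from the rest of their group were sought in the named genes with Dixon's test at its 95% critical value. Of 288 groups tested 14 passed, and chance alone gives about 1 in 20. SLC-0111 replicate 1 was the lowest library of its group for BHLHE41 at 0.671 CPM and BDH1 at 3.46 CPM. SLC-0111 replicate 4 was the lowest library of its group for VEGFA at 161 CPM, NR0B2 at 1.46 CPM, CTSB at 517 CPM, C3 at 76.8 CPM, LGR5 at 54.9 CPM and ID1 at 405 CPM. DMSO replicate 1 was the highest library of its group for TRIB3 at 24.2 CPM, PHGDH at 177 CPM and MT1G at 4.28 CPM. DMSO replicate 1 was the lowest library of its group for ARNT at 53.6 CPM and NR1I3 at 3.55 CPM. DMSO replicate 3 was the highest library of its group for PKLR at 25.01 CPM.

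For 60 of the 144 named genes the effect of SLC-0111 differed between hypoxia and normoxia by the interaction term of edgeR's fit, given here as hypoxia minus normoxia on the log2 scale. Over all 18385 tested genes the share was 5.99%, and some of the named genes were picked for a large difference. The more negative values in hypoxia of at least 0.9 in size were those of ALDOC (−1.83), TNFSF10 (−1.77), NREP (−1.64), PLEKHA2 (−1.37), AQP1 (−1.35), B3GNT4 (−1.31), ANXA1 (−1.27), RNF223 (−1.22), MS4A10 (−1.102), MAB21L3 (−1.04), RNF183 (−1.03), CA12 (−0.95), PPFIA4 (−0.93) and PPP1R3B (−0.91). Smaller negative differences were those of INSIG2 (−0.81), LOX (−0.78), TMEM45A (−0.76), COL1A2 (−0.72), PFKFB4 (−0.70), PGM1 (−0.70), PDK3 (−0.68), SYDE1 (−0.66), LOXL3 (−0.64), SLC7A11 (−0.63), ABCC3 (−0.61), WDR54 (−0.60), BNIP3 (−0.54), SERPINC1 (−0.52), CITED2 (−0.52), GBE1 (−0.48), PCK2 (−0.45), C3 (−0.43), FAM162A (−0.40), P4HA2 (−0.34), PGK1 (−0.33), ERO1A (−0.32), MTHFD2 (−0.31), FN1 (−0.31) and P4HA1 (−0.27). The more positive values in hypoxia were those of EPB41L3 (1.53), GCM1 (1.38), ETV5 (1.31), CPB2 (1.29), NR1D1 (1.18), GPR83 (1.05) and SPRY4 (1.002), and, below 0.9, those of GADD45A (0.84), PCDH1 (0.83), GPAM (0.81), DUSP6 (0.77), NFE2L2 (0.67), SPRY2 (0.67), GPR161 (0.64), LGR5 (0.63), APOH (0.63), ALB (0.62), MT-ND4 (0.62), CTSL (0.48), SLC30A1 (0.34) and SQSTM1 (0.28).

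In 13 of these genes the call on the difference was lost when 1 of the 16 libraries was left out. For ERO1A this held without normoxia DMSO replicate 2, at log2 −0.30. FN1 lost it for 5 of the libraries, with differences from log2 −0.30 to −0.27. GBE1 lost it for 8 of the libraries, with differences from log2 −0.48 to −0.38. INSIG2 lost it for 13 of the libraries, with differences from log2 −0.86 to −0.68. LOXL3 lost it for 11 of the libraries, with differences from log2 −0.67 to −0.55. MT-ND4 lost it for 11 of the libraries, with differences from log2 0.56 to 0.67. MTHFD2 lost it for 5 of the libraries, with differences from log2 −0.30 to −0.25. NR1D1 lost it for 6 of the libraries, with differences from log2 1.105 to 1.18. P4HA1 lost it for 14 of the libraries, with differences from log2 −0.28 to −0.22. RNF183 lost it for 5 of the libraries, with differences from log2 −1.01 to −0.83. For SLC30A1 this held without hypoxia SLC-0111 replicate 2, at log2 0.32. For SPRY4 this held without hypoxia SLC-0111 replicate 3 or normoxia DMSO replicate 2, at log2 0.88 to 0.91. SQSTM1 lost it for 10 of the libraries, with differences from log2 0.24 to 0.29. Each kept its direction.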

How the results depend on the processing

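Counts of called genes moved with scaling, depth and the libraries used. Scaling by library size alone gave 959 genes higher and 1941 lower in hypoxia and 1396 higher and 3141 lower in normoxia. Thinning every library to the shallowest gave 768 higher and 632 lower in hypoxia, 1000.0 higher and 818 lower in normoxia, and 308 differences. A fit of the 8 hypoxia libraries alone gave 1115 higher and 857 lower. Leaving out 1 library at a time gave 1288 to 1836 higher and 930.0 to 1460.0 lower in hypoxia, 1748 to 2513 higher and 1536 to 2434 lower in normoxia, and 691 to 2040.0 differences, the last without DMSO replicate 1 of hypoxia. Without DMSO replicates 1 and 3 there were 2953 differences. DESeq2 gave 1630.0 higher and 1355 lower in hypoxia, and limma-voom 1651 and 1280.0. The cause of these shifts was not tested, except that thinning removes counts and fits of fewer libraries have fewer residual degrees of freedom.

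Deviations of same-numbered hypoxia libraries from their group means correlated at −0.03, 0.106 and 0.079, and those of the other hypoxia pairs at −0.131 to 0.115. Normoxia pairs were not compared, so these values do not settle whether the number pairs the libraries. With the replicate number as a block among numbered libraries 2127 genes were higher, 1477 lower and 1881 differed, and without the block in the same libraries, a comparison added after seeing the data, 1566, 1136 and 624. Of the named genes BNIP3 (log2 −0.27), MT-CO2 (log2 0.51) and ASNS (log2 1.08) did not pass under the block.

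Of the log2 fold changes of the named genes under all alternatives 4105 kept direction and side of the threshold, 44 lost the call, 6 gained it (HIF1A, EPAS1 and GPR83) and 11 changed sign. None passed the test where its sign changed. CA12 was at 0.083 when thinned and between −0.085 and 0.042 when 1 library was left out. Without DMSO replicates 1 and 3 HIF1A was at −0.012 and VEGFA at −0.017. GPR83 was at −0.052 when thinned. ANXA1 was at −0.028 with library size alone, −0.006 with the block, −0.061 in its unblocked match, and between −0.060 and 0.125 when 1 library was left out. The difference of MS4A10 was 0.106 when thinned. Genes near 1 CPM rest on few reads in DMSO replicate 3, where 3 counts are 0.91 CPM.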
